A study of Mus musculus with 30 samples.

Results

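Undifferentiated induced pluripotent stem (iPS) cells of clones ST5 and ST8 were compared with undifferentiated embryonic stem (ES) cells of mouse. The comparison used 9 of the 30 arrays of the series, chosen by their titles: 3 of clone ST5, 3 of clone ST8 and 3 of the ES line, all at day 0 and labelled without amplification. All cells carried the C57BL/6x129SvJae background, were sorted as Sox2 bright, and gave total RNA by the miRNeasy kit, per the labels. The Sox2 level is therefore set in part by the sort. The same lines at day 5 of differentiation, sorted as Kit positive and Sox2 dim (9 further arrays), were used only to see which day 0 differences were still measured there. How the clones were reprogrammed is not given in the sources used here. The ES cells are 1 line and the iPS cells are 2 clones, so a trait of a line or clone cannot be told apart from one of iPS cells, and the p-values measure the spread among the replicates of these lines.

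ES cells come from the inner cell mass, and iPS cells are made from somatic cells by forced expression of transcription factors. Both self-renew through a network around Oct4 (Pou5f1), Sox2 and Nanog, and both can enter the primitive streak programme, driven by Wnt and Nodal, from which definitive endoderm arises. Imprinted genes are expressed from the copy of 1 parent. In the imprinted Dlk1-Dio3 domain on mouse chromosome 12 the maternal copy makes long noncoding RNAs (Meg3, Rian, Mirg), small nucleolar RNAs and a large miRNA cluster, and the paternal copy makes the protein-coding genes Dlk1, Rtl1 and Dio3.

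Values are log2 expression after robust multi-array averaging (RMA), and a difference is the mean of both clones minus the ES mean with its standard error. A gene was called when limma's moderated test gave a Benjamini-Hochberg adjusted p under 0.05 over 19938 genes. Of these, 1737 (8.71%) were called, 814 higher (4.08%) and 923 lower (4.63%) in iPS cells, and the median difference over all genes was -0.01. Most calls were small, with a median size of 0.34. Calls of at least 2-fold numbered 57 (0.286%), 29 higher (0.145%) and 28 lower (0.14%). The 6 iPS arrays did not overlap the 3 ES arrays in 2715 genes (13.6%), 1299 above (6.52%) and 1416 below (7.1%). Leaving out ES replicate 1, 2 or 3 left 938, 1062 or 1025 calls, and a fit of all 18 unamplified arrays left 971. The medians of the 9 arrays lay between 5.50 and 5.56.

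The largest block of differences lay in the Dlk1-Dio3 domain, where maternally expressed RNAs were lower in both iPS clones. Of 47 domain genes measured, 44 were called lower and 0 higher, beside 4.63% lower and 4.08% higher over all genes. Domain genes made up 20 of the 28 falls of at least 2-fold. Mature sequences are shown for the 5 miRNAs with the largest falls (Mir380, Mir382, Mir300, Mir377 and Mir329), for Mir127, which lies antisense to Rtl1, and for Mir379 and Mir411, which share a seed. Sequences are from RefSeq (GRCm38.p6, plus strand) and capitals mark the seed, bases 2 to 8, which pairs with targets.

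mmu-miR-380-3p: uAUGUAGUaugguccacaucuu

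mmu-miR-382-5p: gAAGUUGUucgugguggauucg

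mmu-miR-300-3p: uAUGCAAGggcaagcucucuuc

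mmu-miR-377-3p: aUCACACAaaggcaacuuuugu

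mmu-miR-329-3p: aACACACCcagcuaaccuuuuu

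mmu-miR-127-3p: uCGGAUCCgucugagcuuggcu

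mmu-miR-379-3p: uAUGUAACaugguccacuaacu

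mmu-miR-411-3p: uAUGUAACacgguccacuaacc

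The arm miR-380-3p maps to chr12:109711842-109711863 and miR-377-3p to chr12:109740553-109740574. All 40 domain miRNA genes were matched to 76 mature sequences, which held 74 different seeds. Shared seeds were AUGUAAC, in miR-379-3p and miR-411-3p, and UGGAUAU, in miR-376b-5p and miR-376c-5p. Each probe set reads the miRNA gene as a whole, so its arms, and precursor and mature forms, cannot be told apart. The falls given below are those of the probe sets, and no fall is shown for a mature miRNA.

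Meg3, the long noncoding RNA at the start of the maternal transcripts, read 10.26, 10.14 and 10.33 in ES cells, 7.59, 7.58 and 7.50 in ST5 and 7.52, 7.57 and 7.76 in ST8. Its difference was -2.65 ± 0.07 (adjusted p = 9.55e-10), a 6.29-fold lower level. Rian, a noncoding RNA that hosts small nucleolar RNAs, read 7.84, 7.83 and 7.88 in ES cells, 4.06, 4.17 and 4.24 in ST5 and 4.56, 3.79 and 4.27 in ST8. Both clones stood far below the ES arrays for both RNAs, and neither overlapped them. Rian's difference was -3.67 ± 0.13 (adjusted p = 9.41e-09). The small nucleolar RNA transcripts DQ267102 and DQ267101 had differences of -3.40 ± 0.07 (adjusted p = 1.82e-10) and -2.57 ± 0.08 (adjusted p = 5.96e-09). The noncoding RNA Mirg had no probe set of its own.

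Of the 40 domain miRNA genes, 39 were called lower, 16 of them at least 2-fold, with a median difference of -0.87. Many of the iPS values were low, with ST5 means of 2.52 for Mir380, 2.43 for Mir377 and 2.12 for Mir411. Mir376c and Mir376a had means of 2.12 and 2.17 in ES cells as well. Without detection calls such values are not shown to be above background, which limits the sizes, their ranking and the 2-fold count. Mir380 fell most, from 6.01, 5.55 and 6.03 in ES cells to 2.42, 2.71 and 2.42 in ST5 and 2.67, 2.68 and 2.63 in ST8. Its difference was -3.28 ± 0.11 (adjusted p = 5.96e-09), and every iPS array was below every ES array. Mir382 fell by 2.86 ± 0.08, Mir300 by 2.76 ± 0.13, Mir377 by 2.69 ± 0.07 and Mir329 by 2.53 ± 0.06. Mir127, which lies antisense to the paternal gene Rtl1 and matches its transcript, read 6.79, 7.01 and 6.82 in ES cells, 5.27, 5.44 and 5.30 in ST5 and 5.21, 5.19 and 5.24 in ST8. That is a difference of -1.60 ± 0.07 (adjusted p = 4.69e-08), with no overlap. Mir411 and Mir379, which share a seed, fell by 2.08 ± 0.07 and 1.47 ± 0.12. In 38 of the 40 miRNAs all iPS arrays lay below all ES arrays, beside 1416 of all 19938 genes (7.1%). Mir666, the miRNA not called, had a difference of -0.08 (adjusted p = 0.501). Across leaving out each array the count of lower miRNAs ran from 34 to 39. Outside the domain, 7 of 257 miRNAs tested were called, beside 8.71% of all genes.

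The paternally expressed genes of the domain showed small differences. Rtl1, a retrotransposon-derived gene needed in placenta, read 5.72, 5.66 and 5.60 in ES cells, 5.23, 5.54 and 5.45 in ST5 and 5.25, 5.01 and 5.27 in ST8. The difference was -0.37 ± 0.08 (adjusted p = 0.0158), and it was lost without ES replicate 1 (adjusted p = 0.0791) or ES replicate 2 (adjusted p = 0.0625). Dlk1, a Notch-like membrane protein, differed by -0.06 (adjusted p = 0.756), and Dio3, which inactivates thyroid hormone, by -0.17 (adjusted p = 0.15). None of the 47 domain genes was called between the clones, beside 0.115% of all genes. On chromosome 12 as a whole 107 of 652 genes (16.4%) were called, and 63 of 605 (10.4%) without the domain, beside 5.71% to 10.5% on the other autosomes and the X.

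**Figure D1:**
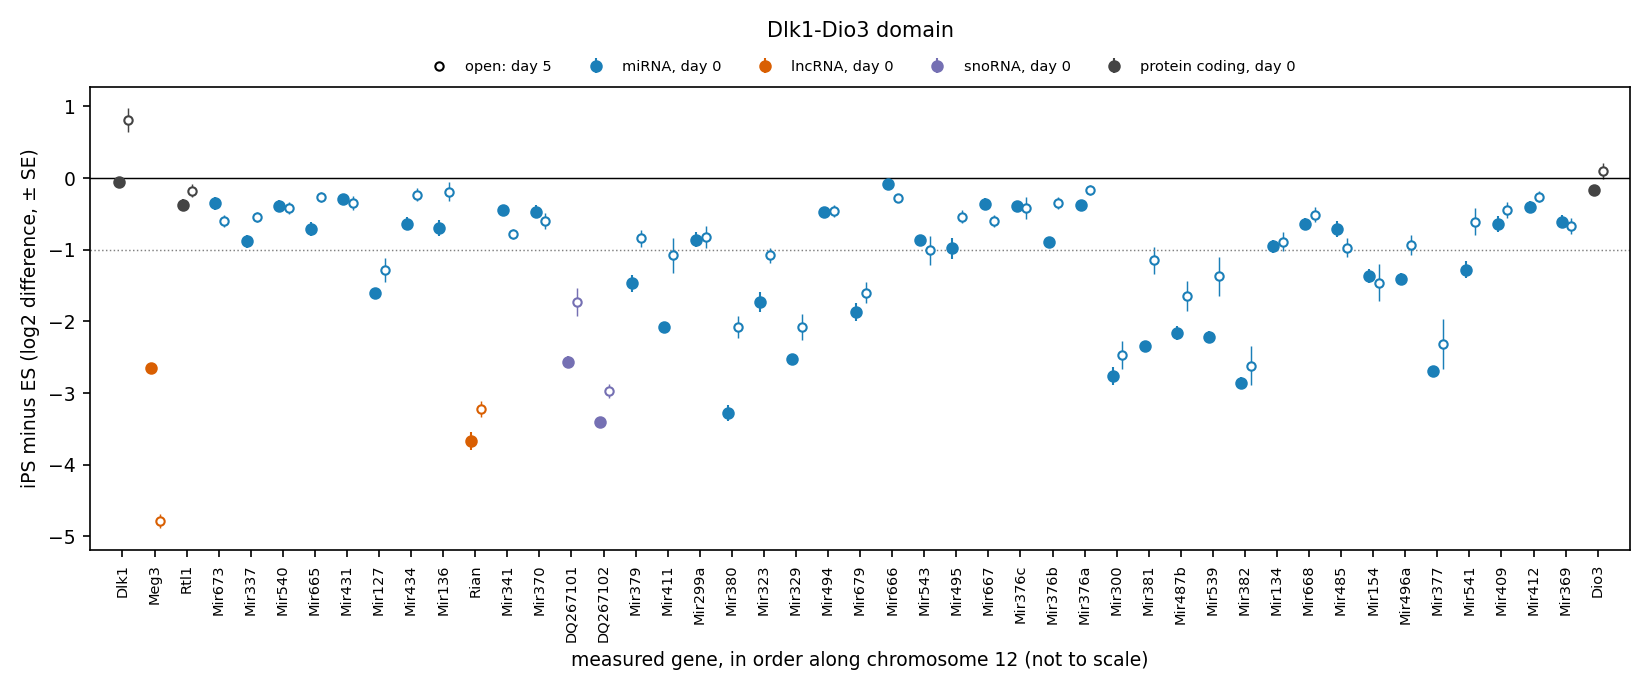
Domain genes of chromosome 12 by their order along the chromosome (x axis) against the log2 difference of iPS minus ES cells at day 0 (y axis), with filled points coloured by gene class and error bars of 1 standard error, and open points for the same difference at day 5. Meg3 and Rian lie at -2.65 and -3.67 at day 0, the 40 miRNAs run from -3.28 (Mir380) to -0.08 (Mir666) with a median of -0.87, and Dlk1 and Dio3 lie near 0.

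The largest rise of all was Nr1h5 (FXR beta, a nuclear receptor related to the bile acid receptor), and its neighbour on chromosome 3, Sycp1 (a synaptonemal complex protein of meiosis), rose with it. They were the only pair of neighbouring genes outside the Dlk1-Dio3 domain that both changed at least 2-fold. Their RefSeq promoters (GRCm38.p6, minus strand, 250 bases before the start and 50 after) are printed because the genes moved together, with CpG pairs, the site of DNA methylation, in capitals. The Nr1h5 promoter is chr3:102964084-102964383 and that of Sycp1 is chr3:102936051-102936350.

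Nr1h5: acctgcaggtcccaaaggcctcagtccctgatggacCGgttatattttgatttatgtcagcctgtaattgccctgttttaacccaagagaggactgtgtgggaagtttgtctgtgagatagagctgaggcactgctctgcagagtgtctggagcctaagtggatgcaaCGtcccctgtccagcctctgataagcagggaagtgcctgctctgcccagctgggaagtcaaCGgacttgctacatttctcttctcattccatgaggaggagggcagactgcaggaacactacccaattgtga

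Sycp1: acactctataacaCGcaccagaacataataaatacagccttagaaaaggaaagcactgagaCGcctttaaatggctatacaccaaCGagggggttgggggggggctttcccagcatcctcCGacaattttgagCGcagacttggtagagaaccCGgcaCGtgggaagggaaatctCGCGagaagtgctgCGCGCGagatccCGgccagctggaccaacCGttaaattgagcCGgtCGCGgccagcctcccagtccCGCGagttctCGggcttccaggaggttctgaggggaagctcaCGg

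The Nr1h5 window holds 3 CpG pairs and the Sycp1 window 21, beside a median of 7.0 over all 32851 RefSeq windows. Over the 15614 tested genes with a window the median was 16.0, taking for each gene its window with the most CpG pairs. Methylation was not measured on these arrays. Nr1h5 read 3.34, 3.09 and 2.88 in ES cells, 9.26, 9.27 and 9.75 in ST5 and 9.92, 9.82 and 9.91 in ST8. Its difference was 6.55 ± 0.12 (adjusted p = 7.56e-11). No fold is given, since without detection calls the low ES values are not shown to be above background. Sycp1 read between 2.94 and 3.26 in ES cells, 5.43, 4.99 and 5.44 in ST5 and 5.70, 5.51 and 5.26 in ST8, a difference of 2.32 ± 0.12 (adjusted p = 5.39e-07). Both genes were far above the ES arrays in all 6 iPS arrays. Of the measured genes on either side, Tshb, which encodes thyrotropin beta, differed by -0.05 (adjusted p = 0.794), and Sike1, an inhibitor of innate immune kinases, by 0.28 ± 0.07 (adjusted p = 0.0304). The Sike1 call was kept only without ST5 replicate 1 or 2, and without each other array the adjusted p ran from 0.0501 to 0.143.

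Primitive streak genes were higher in iPS cells at day 0, in cells sorted for bright Sox2. Of 16 measured, 7 were called higher and 0 lower, with a median difference of 0.32. Over all genes 4.08% were called higher and 4.63% lower, the shares to set beside each list count below. In the fit of 18 arrays 971 genes were called in place of 1737, so fewer calls in a list are also seen over all genes. Mixl1, a homeobox gene of the streak, read 5.76, 5.90 and 5.63 in ES cells, 8.73, 8.09 and 7.08 in ST5 and 7.55, 7.13 and 7.80 in ST8. All 6 iPS arrays were above the ES arrays, and the ST5 arrays spread from 7.08 to 8.73. The difference was 1.97 ± 0.27 (adjusted p = 0.00122). Eomes, a T-box factor needed for endoderm, read 5.99, 6.33 and 6.21 in ES cells, 8.47, 8.09 and 7.36 in ST5 and 7.58, 7.39 and 7.69 in ST8, a difference of 1.59 ± 0.19 (adjusted p = 0.000388). Lhx1, a homeobox gene of the anterior streak, rose by 1.64 ± 0.16, Foxa2, a forkhead factor of endoderm, by 1.17 ± 0.18 (adjusted p = 0.00212), and Gsc, an organizer gene, by 1.02 (adjusted p = 0.00104). ST5 replicate 1 was the highest ST5 array in 6 of the 7 called genes and ST5 replicate 3 the lowest in 7 of 7. The list's mean read 5.60, 5.70 and 5.55 in ES cells, 6.47, 6.40 and 6.00 in ST5 and 6.07, 6.04 and 6.16 in ST8, so all iPS arrays lay above all ES arrays. In bulk RNA, more cells of a type and more RNA per cell cannot be told apart.

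Definitive endoderm genes moved in both directions. Of 19 measured, 7 were called higher and 3 lower (median 0.17), and in the fit of 18 arrays 4 and 0. Cxcr4, a chemokine receptor used to sort endoderm, read 6.13, 6.16 and 6.34 in ES cells, 7.63, 7.37 and 6.89 in ST5 and 7.55, 7.63 and 7.91 in ST8, a difference of 1.29 ± 0.14 (adjusted p = 0.000193). Cer1, a secreted protein that binds and blocks Nodal and BMP ligands, rose by 1.05 ± 0.14 (adjusted p = 0.000889). No iPS array of either gene fell among the ES arrays. Sox17, an endoderm transcription factor, rose by 0.83 ± 0.09 (adjusted p = 0.000182), a call lost in the fit of 18 arrays (adjusted p = 0.37). The same fit ended the calls of Gata6 at 1.21 (adjusted p = 0.0933) and of Hhex at 0.54 (adjusted p = 0.609). As for the streak genes, ST5 replicate 1 was highest and ST5 replicate 3 lowest of the ST5 arrays in 7 of the 7 genes called higher.

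Direct targets of Wnt signalling were also higher, with 5 of 14 called higher and 0 lower (median 0.17). Sp5, a zinc-finger gene switched on by beta-catenin, read 6.16, 6.38 and 6.30 in ES cells, 7.87, 7.86 and 7.67 in ST5 and 7.55, 7.47 and 7.40 in ST8. Its arrays were tight within each line and did not overlap the ES arrays (difference 1.36 ± 0.07, adjusted p = 4.96e-07). Lef1, a DNA-binding partner of beta-catenin, rose by 1.07 ± 0.08 (adjusted p = 8.72e-06), and stood above the ES arrays in every iPS array. Notum, an enzyme that inactivates Wnt ligands, read 5.47, 5.49 and 5.41 in ES cells, 6.44, 6.34 and 6.67 in ST5 and 6.49, 6.19 and 6.62 in ST8 (adjusted p = 7.92e-05). The other called targets, named after their values were seen, were Lgr5, an R-spondin receptor, at 0.78 ± 0.11 and Axin2, a feedback inhibitor, at 0.68 ± 0.09. Of 19 Wnt ligands 1 was called higher and 1 lower (10.5%), near the 8.71% over all genes. Wnt5a was at 0.65 (adjusted p = 0.483 in the fit of 18 arrays), and Wnt7b was at -0.36, which lost its call without ES replicate 1 (adjusted p = 0.0564) or ES replicate 2 (adjusted p = 0.0548). Of 23 receptors and transducers 3 were called higher and 0 lower (1 and 0 without ES replicate 2, and in the fit of 18 arrays).

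The Sp5 promoter (RefSeq GRCm38.p6, chr2:70474673-70474972, plus strand) holds a match to the core motif of the Wnt-regulated TCF and LEF factors, searched as CTTTGAT or CTTTGAA on both strands. It is printed with the match in capitals.

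Sp5: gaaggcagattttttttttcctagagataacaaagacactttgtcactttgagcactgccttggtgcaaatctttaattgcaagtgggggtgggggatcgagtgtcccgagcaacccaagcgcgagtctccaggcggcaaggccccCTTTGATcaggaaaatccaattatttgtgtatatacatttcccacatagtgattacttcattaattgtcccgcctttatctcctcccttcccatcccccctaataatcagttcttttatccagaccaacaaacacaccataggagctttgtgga

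The match starts at -104 from the transcription start. Over all genes with a promoter window 1345 of 15614 (8.61%) held the motif. Among called genes it was in 59 of 621 higher (9.5%) and 45 of 707 lower (6.36%), and among Wnt targets in 2 of 8. Among the rises of at least 2-fold with a window it was in 4 of 23 (17.4%): Amot, Foxa2, Mitf and Sp5. Among the falls of at least 2-fold with a window it was in 0 of 9. These shares were not tested. A match is only these letters in the window.

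Genes of the BMP pathway showed 7 calls higher and 1 lower among 24 measured (median 0.05), and 4 higher and 0 lower in the fit of 18 arrays. Bmp4, the ligand that supports both self-renewal and streak formation, read 7.04, 7.04 and 7.03 in ES cells, 8.63, 8.53 and 8.73 in ST5 and 9.07, 9.01 and 9.10 in ST8, a difference of 1.81 ± 0.06 (adjusted p = 5.96e-09). Each line formed its own tight level, ST8 above ST5 above ES cells. The ligand Bmp2 rose by 0.82 ± 0.13 (adjusted p = 0.00287), and Id3, a target of BMP signals, by 0.81 ± 0.13 (adjusted p = 0.00345). The extracellular inhibitor Chrd rose by 0.77 ± 0.12 (adjusted p = 0.00191). Id2, another target, was the gene called lower, at -0.43, and lost its call without ES replicate 1 (adjusted p = 0.101) or ES replicate 3 (adjusted p = 0.0979).

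Among 20 FGF genes 6 were called higher and 1 lower (median 0.09), and 3 higher without ES replicate 1 or without ST8 replicate 1. Etv5, a transcription factor induced by FGF, read 9.58, 9.49 and 9.61 in ES cells, 10.13, 10.20 and 10.24 in ST5 and 10.37, 10.31 and 10.36 in ST8 (difference 0.71 ± 0.05, adjusted p = 1.6e-05). Fgf4, the autocrine ligand of ES cells, read 8.48, 8.40 and 8.33 in ES cells, 7.73, 7.88 and 7.98 in ST5 and 8.02, 7.83 and 7.97 in ST8 (difference -0.50 ± 0.07, adjusted p = 0.0014). Neither gene's iPS arrays overlapped its ES arrays. Other ligands of the list were called higher: Fgf5, a marker of the epiblast, at 0.81 ± 0.16 (adjusted p = 0.0109, and 0.0533 without ES replicate 1), and Fgf8, a ligand of the streak, at 0.55 ± 0.14 (adjusted p = 0.0384). Fgf8 kept its call without ES replicate 2 or ST5 replicate 3, and without each other array the adjusted p ran from 0.0505 to 0.166. The FGF ligands thus moved in both directions. Cyp26a1, which breaks down retinoic acid, read 4.85, 5.54 and 5.84 in ES cells, 8.12, 7.46 and 7.01 in ST5 and 7.55, 8.11 and 7.80 in ST8. It was 4.81-fold higher, a difference of 2.26 ± 0.24 (adjusted p = 0.000193), and ST5 replicate 1 was again the highest and ST5 replicate 3 the lowest of the ST5 arrays.

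Among 20 Nodal and activin genes 3 were called higher and 5 lower (median -0.06), and 1 and 3 in the fit of 18 arrays. Lefty1, a feedback inhibitor of Nodal, read 8.99, 8.93 and 8.93 in ES cells, 8.80, 8.54 and 8.28 in ST5 and 8.27, 8.24 and 8.23 in ST8. All iPS arrays were lower, ST8 more evenly than ST5, and the difference was -0.56 ± 0.09 (adjusted p = 0.00331). Nodal itself differed by -0.41 (adjusted p = 0.00979). The lower count depended on single arrays: it was 3 without ES replicate 1 or ST8 replicate 2, and 2 without ES replicate 2 or 3, ST5 replicate 2, or ST8 replicate 1 or 3. The higher count was 1 without ES replicate 3.

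**Figure D2:**
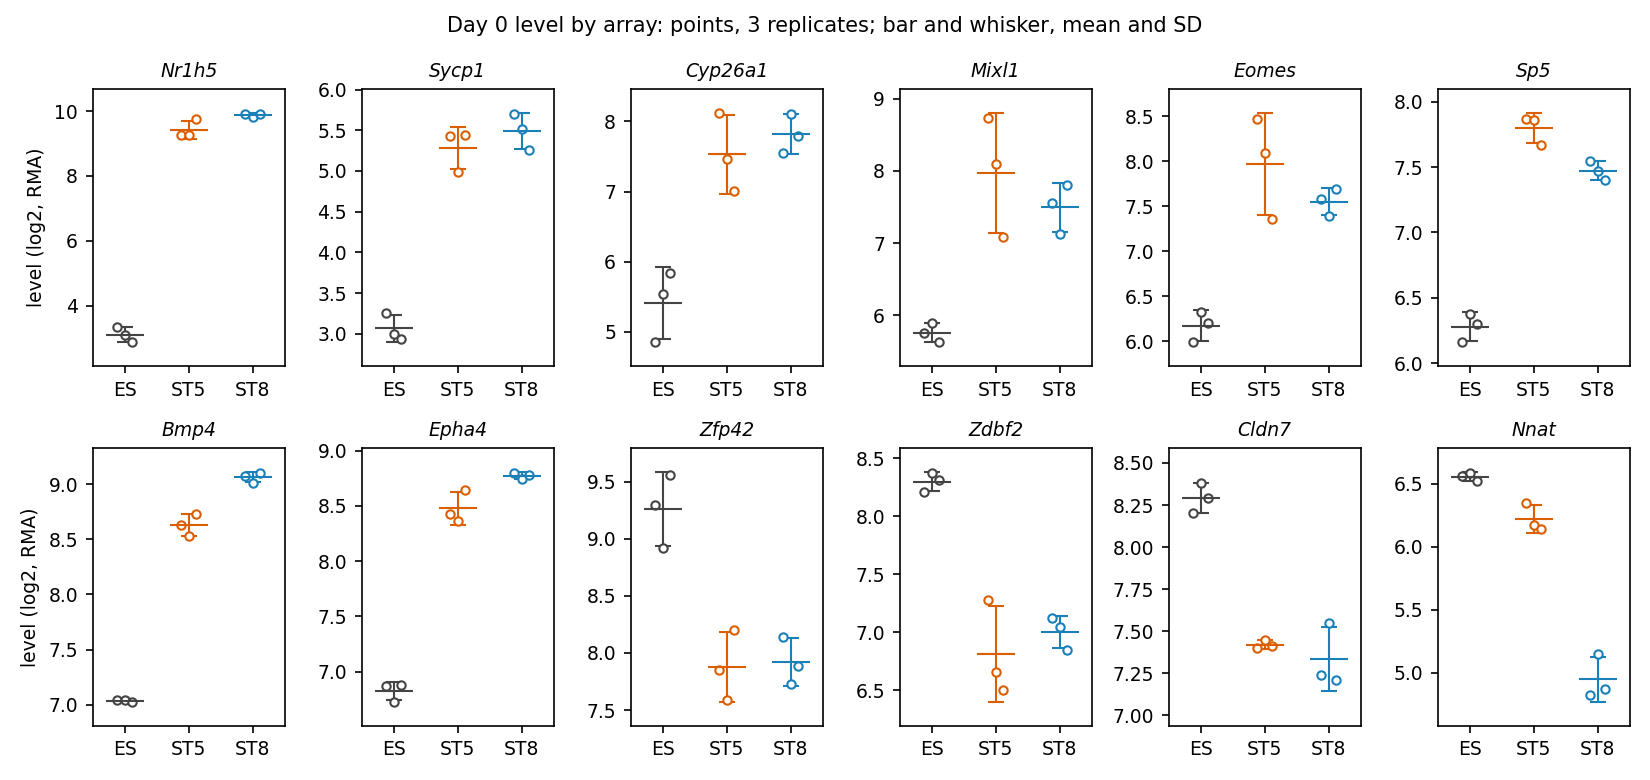
Log2 expression (y axis) of leading genes in each of the 9 day 0 arrays, with 1 point per array, grouped as ES, ST5 and ST8, and a bar and whiskers at each group's mean and SD (n = 3); each panel has its own y range. Nr1h5 reads at most 3.34 in ES cells and at least 9.26 in the iPS arrays, while Mixl1 spreads from 7.08 to 8.73 over the ST5 arrays.

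The core pluripotency factors differed little. Pou5f1 read between 10.94 and 11.12 in all 9 arrays, with the ES arrays inside the range of the iPS arrays and a difference of 0.04 ± 0.05 (adjusted p = 0.73). Of 9 core factors 2 were called lower. Nanog was at -0.21 ± 0.05 (adjusted p = 0.0246) and lost its call without any one of the ES arrays (adjusted p = 0.08, 0.0699 and 0.103), without ST8 replicate 1 (0.0596) or 3 (0.0607), and in the fit of 18 arrays (0.905). Utf1, a chromatin-associated factor, was at -0.42 (adjusted p = 0.000441, and 0.752 in the fit of 18 arrays).

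Genes of the naive state, the ground state of ES cells, moved in both directions. Of 18 measured 8 were called higher and 3 lower (median 0.19). The higher count was 4 without ES replicate 2 or 3, ST5 replicate 3, or ST8 replicate 1 or 2, was 5 without ST8 replicate 3, and was 3 in the fit of 18 arrays. Zfp42 (Rex1), a classical ES cell marker, read 9.30, 8.92 and 9.56 in ES cells, 7.85, 7.59 and 8.20 in ST5 and 8.14, 7.73 and 7.89 in ST8. It was lower in all iPS arrays, with a difference of -1.36 ± 0.15 (adjusted p = 0.000275). Dppa3 (Stella), a maternal factor that protects methylation, was at 0.58 ± 0.10 (adjusted p = 0.00498), and Nr5a2, a nuclear receptor that activates Pou5f1, at 0.57 ± 0.10 (adjusted p = 0.00413). Tfcp2l1, another naive factor, was at 0.66 (adjusted p = 0.000451, and 0.281 in the fit of 18 arrays).

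Imprinted genes outside the Dlk1-Dio3 domain changed in both directions. Of 22 paternally expressed genes 5 were called higher and 3 lower (median 0.06), and 3 higher without ES replicate 1. Zdbf2, an imprinted gene on chromosome 1, read 8.21, 8.37 and 8.31 in ES cells, 7.28, 6.66 and 6.50 in ST5 and 7.12, 7.04 and 6.85 in ST8, a difference of -1.39 ± 0.14 (adjusted p = 0.000114). Zdbf2 was lower in every iPS array. Slc38a4, an amino acid transporter, fell by 0.83 ± 0.07 (adjusted p = 2.49e-05). The clones differed in other members. Nnat, a small membrane proteolipid, read 6.56, 6.59 and 6.52 in ES cells, 6.35, 6.17 and 6.14 in ST5 and 4.82, 5.15 and 4.87 in ST8, and Peg10, a retrotransposon-derived gene, read 8.99, 9.01 and 8.89, then 9.22, 9.25 and 9.27, then 9.92, 9.93 and 9.87 in the same order. Nnat was low and Peg10 high mainly in ST8. The zinc-finger gene Peg3 rose by 0.57 ± 0.08 (adjusted p = 0.00131) and the hydrolase-like gene Mest by 0.45 ± 0.07 (adjusted p = 0.00153). Igf2, the imprinted growth factor, was at 0.05 (adjusted p = 0.887). Of 20 maternally expressed genes 3 were called higher and 1 lower (median 0.03), with 0 lower without any one of the ES arrays and 1 higher and 2 lower in the fit of 18 arrays. Asb4, an ankyrin repeat gene, was at 0.55 ± 0.09 (adjusted p = 0.00424, and 0.158 in the fit of 18 arrays), and Ascl2, a transcription factor of trophoblast and a Wnt target, at 0.33 ± 0.08 (adjusted p = 0.0191). Ascl2 lost its call without ES replicate 3 (adjusted p = 0.0964) and in the fit of 18 arrays (adjusted p = 0.713).

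Genes of DNA methylation and its removal were partly lower, 3 of 14 called lower and 0 higher (median -0.05), and 5 lower and 1 higher without ST5 replicate 1. Gadd45b, a stress gene linked to demethylation, read 8.59, 8.56 and 8.88 in ES cells, 7.65, 7.57 and 7.55 in ST5 and 7.79, 8.15 and 7.90 in ST8 (difference -0.91 ± 0.09, adjusted p = 0.000117). Tet2, an enzyme that oxidises methylcytosine, read 7.20, 7.09 and 7.17, then 6.33, 6.31 and 6.58, then 6.75, 6.57 and 6.63 (difference -0.63 ± 0.07, adjusted p = 0.000371). Both were below the ES arrays in every iPS array. The cytidine deaminase Apobec1 fell by 0.59 ± 0.07 (adjusted p = 0.000517). Of 35 meiosis and germline genes 6 were called higher, Sycp1 and Dppa3 among them, and 6 lower (3 without ES replicate 1), with a median of -0.00.

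Genes of epithelial junctions and keratins were lower in iPS cells, 10 of 22 called lower and 1 higher, with a median of -0.25, and 5 lower and 0 higher in the fit of 18 arrays. Cldn7, a tight junction claudin, read 8.20, 8.38 and 8.29 in ES cells, 7.40, 7.45 and 7.41 in ST5 and 7.24, 7.55 and 7.21 in ST8 (difference -0.91 ± 0.08, adjusted p = 3.45e-05). Cldn4, another claudin, read 10.26, 9.99 and 10.15, then 9.16, 9.13 and 9.42, then 9.16, 9.58 and 9.01 (difference -0.89 ± 0.12, adjusted p = 0.000801). Both claudins were lower in every iPS array. Jup (plakoglobin), which links desmosomes and adherens junctions, fell by 0.57 ± 0.06 (adjusted p = 0.000178). Prss8, an epithelial membrane protease outside the list, fell by 1.01 ± 0.07 (adjusted p = 7.31e-06). The desmosomal cadherin Dsg2 was the one called higher, at 0.77 (adjusted p = 0.0523 in the fit of 18 arrays). Of 20 p53 target genes 6 were called lower and 0 higher (median -0.17), but 3 lower without any one of the ES arrays or ST8 replicate 1 or 3, and 2 in the fit of 18 arrays.

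Other large differences lay outside the lists. Atp7b, a copper transporter, read 5.43, 5.63 and 5.45 in ES cells, 7.29, 7.13 and 7.30 in ST5 and 7.43, 7.49 and 7.37 in ST8 (difference 1.83 ± 0.07, adjusted p = 1.25e-08). Epha4, an ephrin receptor, read 6.87, 6.73 and 6.88, then 8.43, 8.36 and 8.64, then 8.80, 8.74 and 8.78 (difference 1.80 ± 0.07, adjusted p = 2.33e-08). Both were well separated from the ES arrays with little spread within a line. The angiomotin gene Amot rose by 1.55 ± 0.17 (adjusted p = 0.000215) and the Kruppel-like factor Klf12 by 1.38 ± 0.08 (adjusted p = 2.02e-06). Trim12a, a tripartite motif gene, read 5.73, 5.34 and 6.03, then 3.48, 3.70 and 3.85, then 3.80, 3.79 and 3.84 (difference -1.95 ± 0.13, adjusted p = 3.56e-06). Kcnj3, a potassium channel, fell by 1.29 ± 0.14 (adjusted p = 0.000216). The provisional symbol AI506816, named after its values were seen, was at -2.71 ± 0.14 (adjusted p = 6.1e-07).

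Markers of other cells were checked by list. Of 21 fibroblast markers 1 was called higher and 0 lower: Lum, an extracellular matrix proteoglycan, at 0.70 ± 0.17 (adjusted p = 0.029), a call lost without ES replicate 1 or 2 or ST8 replicate 1 or 3. Dcn, a related proteoglycan, was at 0.40 (adjusted p = 0.122) and Col1a1, a fibrillar collagen, at 0.23 (adjusted p = 0.148). The list's array means ran from 6.85 to 7.15 in ES cells, 7.02 to 7.17 in ST5 and 6.99 to 7.22 in ST8, so the groups overlapped. Col1a1 read 9.37, 9.55 and 9.76 in ES cells, 9.84, 9.81 and 9.70 in ST5 and 9.67, 9.77 and 9.92 in ST8, so the groups overlapped for this gene as well. Of 12 trophoblast markers 3 were called higher and 0 lower, and Eomes and Ascl2, given above under other lists, are among the 3. Of 20 parietal and visceral endoderm markers 2 were called higher and 0 lower, or 1 and 0 in the fit of 18 arrays. The part of cells of all these types in the differences described above was not tested. Of 8 Y-linked genes 2 were higher in iPS cells, Uty, a histone demethylase relative, at 0.74 ± 0.07 (adjusted p = 0.000107) and Eif2s3y, a translation factor, at 0.51 ± 0.07 (adjusted p = 0.00155).

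**Figure D3:**
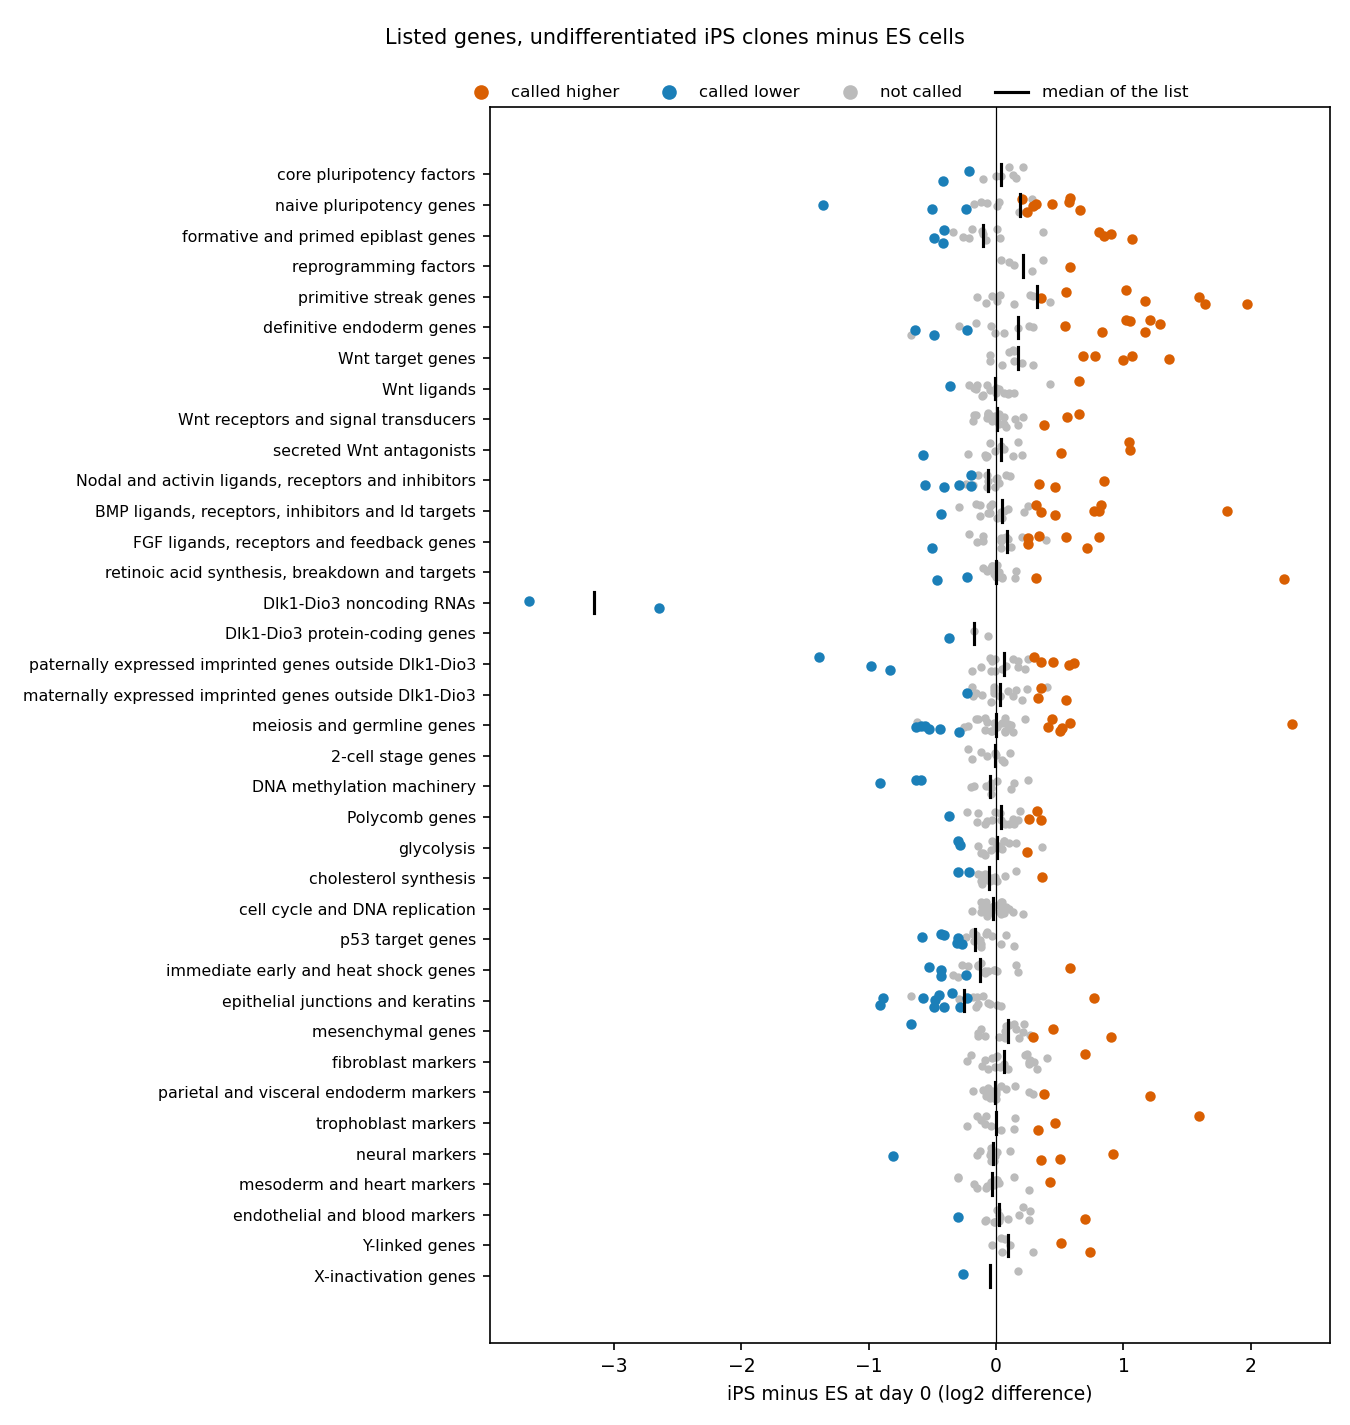
Log2 difference of iPS minus ES cells at day 0 (x axis) for each measured gene of each list (y axis), with 1 point per gene, orange for called higher, blue for called lower and grey for not called, and a bar at the list's median. Streak genes hold 7 orange and 0 blue points, and epithelial genes 1 orange and 10 blue.

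Each clone was also set against the same 3 ES arrays, so these contrasts share them. ST5 differed from ES cells in 1172 genes (5.88%), 502 higher (2.52%) and 670 lower (3.36%), and ST8 in 1442 (7.23%), 749 higher (3.76%) and 693 lower (3.48%). Without ES replicate 1 or 3 the ST5 count was 687 or 675. Without ES replicate 1, 2 or 3 the ST8 count was 826, 829 or 932, without ST8 replicate 1, 2 or 3 it was 632, 947 or 861, and in the fit of 18 arrays the counts were 643 and 707. Tested directly, 23 genes (0.115%) differed between the clones, 12 higher (0.0602%) and 11 lower (0.0552%) in ST8. The count was 48 without ST5 replicate 3 and between 5 and 16 without any one of the other arrays. With the arrays shifted to a common median 65.4% of the calls were higher in ST8, against 52.2%.

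Among the genes called between the clones Nnat had the largest difference, ST8 minus ST5 at -1.27 ± 0.09 (adjusted p = 0.00036). Against ES cells ST5 was at -0.34 (adjusted p = 0.0533) and ST8 at -1.61 (adjusted p = 1.35e-06). Nol9, a kinase of ribosomal RNA processing, read 10.03, 10.02 and 9.98 in ES cells, 9.38, 9.31 and 9.26 in ST5 and 10.09, 10.03 and 10.05 in ST8. ST5 alone stood apart there, and the clones differed by 0.74 ± 0.06 (adjusted p = 0.000442). Peg10 was 0.66 ± 0.06 higher in ST8 (adjusted p = 0.00131), a call lost in the fit of 18 arrays (adjusted p = 0.158).

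At day 5 the libraries stood apart within groups, which bears on all day 5 values, and its part in them was tested only by leaving out arrays. The mean of the 9 core pluripotency factors read 7.88, 8.52 and 8.48 in ES cells, 7.08, 7.27 and 7.05 in ST5 and 8.81, 7.20 and 8.79 in ST8. ES replicate 1 and ST8 replicate 2 were thus below the other arrays of their lines. At day 5 the iPS cells differed from ES cells in 140 genes (0.702%), 65 higher (0.326%) and 75 lower (0.376%). The count was 1619 without ES day 5 replicate 1, 265 without ST8 day 5 replicate 2, and 27 to 66 without any one of the other day 5 arrays. With the arrays shifted to a common median 70.7% of the calls were higher in iPS cells at day 5, against 46.4%. The change of the difference from day 0 to day 5, tested over 18 arrays, was called in 427 genes (2.14%), 217 above 0 (1.09%) and 210 below (1.05%). The count was 1744 without ES day 5 replicate 1 and 673 without ST8 day 5 replicate 2, and 61.5% of calls were above 0 with the arrays shifted, against 50.8%. It was 173 without ES day 0 or ES day 5 replicate 3, 191 and 198 without ES day 5 replicate 2 and ES day 0 replicate 1, and 280 and 252 without ST8 day 0 replicates 1 and 3.

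Of the 1737 genes called at day 0, 70 (4.03%) were among the 140 called at day 5 in the same direction, and 279 had a difference that shrank or turned by the test of change. That test uses the same day 0 arrays by which the genes were chosen. A lean toward shrinking is thus set in part by the choice, here and in the counts and changes below, and is no independent result. The count of 70 was 231 without ES day 5 replicate 1, 101 without ST8 day 5 replicate 2, and 22 to 37 without any one of the other day 5 arrays. The count of 279 was 542 without ES day 5 replicate 1, and ranged from 144 to 414 without any one of the other 17 arrays. Of the 29 rises of at least 2-fold, 1 was called at day 5, Nr1h5, and 19 shrank or turned (16 to 25 without any one array). Of the 20 domain falls of at least 2-fold, 17 were called at day 5. That count was 10 or 11 without an ST5 day 5 array, 12 without ES day 5 replicate 2 or 3 or ST8 day 5 replicate 1 or 3, and 19 without ES day 5 replicate 1. Of these 20, 2 shrank by the test of change, 15 without ES day 5 replicate 1 and 3 without ES day 0 replicate 2. Of the 8 other falls 3 were called, AI506816, Trim12a and Kcnj3, named here after their values were seen, and 1 was called without any one of the day 5 arrays other than ES replicate 1 and ST8 replicate 2.

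Meg3 read 10.18, 9.76 and 9.91 at day 5 in ES cells, 5.17, 5.33 and 5.11 in ST5 and 5.07, 5.22 and 5.08 in ST8. The gap widened, from -2.65 to -4.79 ± 0.10 (adjusted p = 4.98e-08), a change of -2.14 ± 0.12 (adjusted p = 7.55e-08). Most of the widening lay in the iPS arrays, which read 7.50 to 7.76 at day 0, beside 10.14 to 10.33 in ES cells. Array means of the fibroblast marker list also fell, from 6.85 or more at day 0 in every line. At day 5 they ran from 5.34 to 5.49 in ES cells, 5.24 to 5.31 in ST5 and 5.31 to 5.34 in ST8. The part of such cells in the change of Meg3 was not tested. Rian remained lower, at -3.22 ± 0.11 (adjusted p = 1.88e-06). The domain miRNAs had a median difference of -0.72 at day 5, beside -0.87 at day 0. Nr1h5 read 3.13, 2.93 and 3.35 in ES cells, 6.26, 6.62 and 6.64 in ST5 and 8.81, 6.66 and 8.85 in ST8, a difference of 4.17 ± 0.43 (adjusted p = 0.00476). The change of Nr1h5 was -2.39 ± 0.48 (adjusted p = 0.0166), and it lost its call without ES day 0 replicate 3 (adjusted p = 0.0651) or ES day 5 replicate 3 (adjusted p = 0.0639). ST8 replicate 2, low in core pluripotency factors, was also the lowest ST8 array for Nr1h5. Its neighbour Sycp1 was at -0.04 at day 5 (adjusted p = 0.841), a change of -2.36 ± 0.18 (adjusted p = 2.23e-06). Sycp1 then read 2.25 to 2.55 in ES cells, 2.28 to 2.44 in ST5 and 2.21 to 2.64 in ST8. These values lay below its ES values at day 0 and are not shown to be above background in any line.

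The streak and signalling genes Mixl1, Eomes, Sp5, Bmp4, Cyp26a1 and Epha4 were called higher at day 0 and not at day 5. Mixl1 was at 0.06 ± 0.14 at day 5 (change -1.91 ± 0.36, adjusted p = 0.0103), and Eomes at 0.02 ± 0.16 (change -1.57 ± 0.27, adjusted p = 0.00688). Sp5 read 5.91, 5.82 and 5.74 in ES cells, 5.63, 5.75 and 5.88 in ST5 and 5.73, 5.64 and 5.73 in ST8, with overlap of the groups and a change of -1.46 ± 0.10 (adjusted p = 9.87e-07). Bmp4 was at -0.57 ± 0.26 at day 5 (change -2.38 ± 0.28, adjusted p = 0.000324), and Cyp26a1 at 0.12 ± 0.26 (change -2.14 ± 0.39, adjusted p = 0.00988). Epha4 was at -0.16 ± 0.08 (change -1.96 ± 0.11, adjusted p = 7.55e-08). From day 0 to day 5 the levels moved in different ways. Mean Eomes rose from 6.18 to 8.37 in ES cells, 7.98 to 8.44 in ST5 and 7.55 to 8.34 in ST8. Mean Cyp26a1 rose from 5.41 to 10.17 in ES cells, 7.53 to 10.56 in ST5 and 7.82 to 10.01 in ST8. Mean Bmp4 fell from 7.04 to 6.68 in ES cells, 8.63 to 5.89 in ST5 and 9.06 to 6.34 in ST8. Mean Epha4 rose in ES cells and fell in both clones. A gene not called at day 5 is not shown to be equal there. Nnat kept its clone pattern at day 5, at 9.55, 9.26 and 9.42 in ES cells, 9.45, 9.11 and 9.24 in ST5 and 5.11, 5.40 and 5.54 in ST8. ST8 thus stood far under both other lines, and the mean of both clones was at -2.10 ± 0.11 (adjusted p = 6.65e-05).

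**Figure D4:**
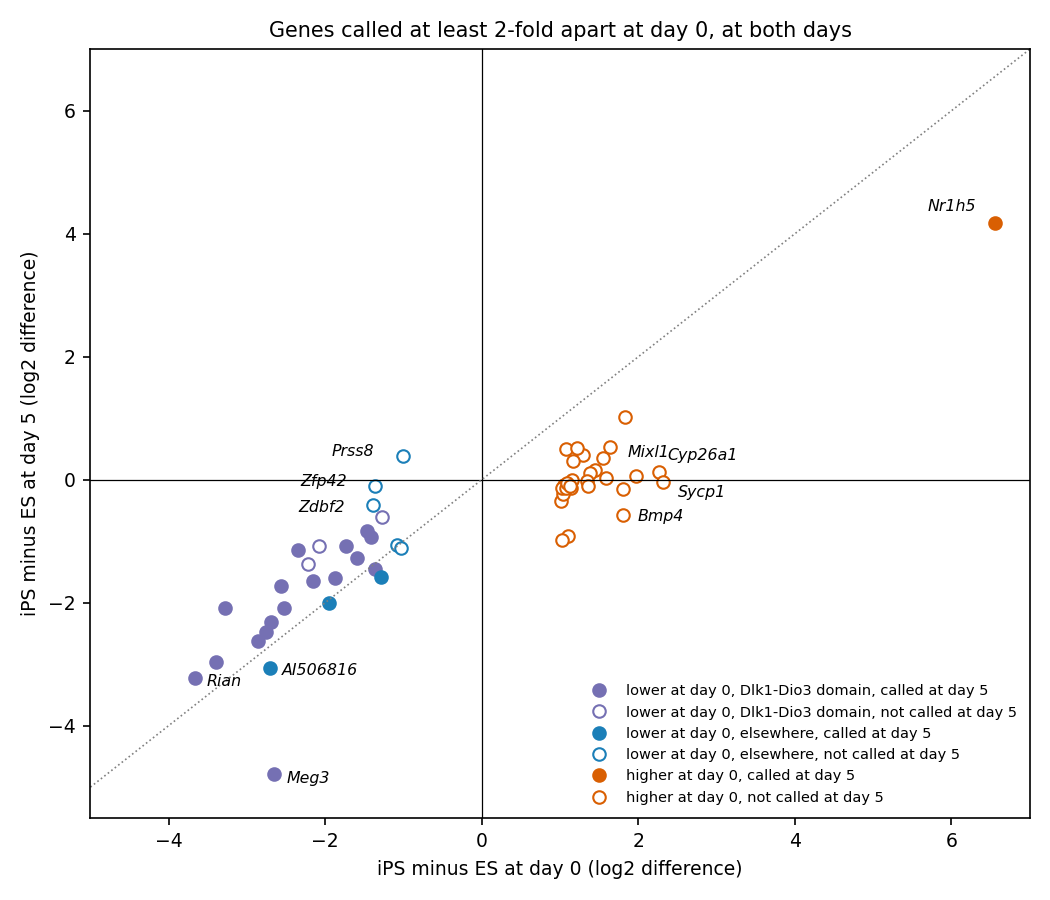
Log2 difference of iPS minus ES cells at day 0 (x axis) against the same difference at day 5 (y axis) for the 57 genes called with at least 2-fold difference at day 0, with filled points for genes called at day 5, open points for those not called, colours for the class and a dotted line of equal differences. Domain genes lie on the lower left, with Meg3 at -2.65 and -4.79, whereas rises such as Mixl1 (1.97 and 0.06) lie near 0 on the y axis.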

How the data were processed

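Gene expression was measured on Affymetrix Mouse Gene 1.0 ST arrays. The values are log2 expression per probe set, made by RMA and deposited by the authors, per the submitters' processing notes. The RMA version, and which arrays were processed together, are not given in the sources used here. Of 35556 probe sets, 21789 had a single gene in the platform annotation and were used, while 1621 with several genes and 12146 not listed were left out. For 998 genes with several probe sets the brightest on average over the 30 arrays stood for the gene, so that 19938 genes were tested.

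A mean per group was fitted in R 4.3.3 by limma 3.58.1, after reading the files by data.table at version 1.17.8, to the 9 day 0 arrays (6 residual degrees of freedom), likewise to the 9 unamplified day 5 arrays, and for the change to all 18 (12 residual degrees of freedom). Tests were two-sided, with Benjamini-Hochberg adjustment and a threshold of 0.05. The code was tested on simulated data. For arrays, the number of arrays limits the precision.

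Named genes were the 12 largest called rises and falls whose iPS and ES arrays do not overlap, provisional symbols and miRNAs left out, with up to 3 called genes per direction from each gene list, by size, and a set of key genes. Genes called both in iPS against ES cells and between the clones were added, by the size of the clone difference in each direction. Domain miRNAs were chosen by place and size. The members and lists were chosen with earlier results of these data known. Alternatives were other scaling, filters, probe set rules, blocks, the fit of 18 arrays, and leaving out each array. Leaving out each array for the domain and for the day 5 state was chosen after seeing the data.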

Additional observations from a re-analysis of the deposited data

Results flagged for a closer look

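Among 193 genes, those chosen by the rule for named genes, the Dlk1-Dio3 domain genes and the other genes of at least 2-fold difference, 14 differed between the clones at day 0 by limma's test (ST8 minus ST5, log2). The rule for named genes took in genes already called between the clones, so the count of 14 was set by the choice and is no result. Over all 19938 genes 23 (0.115%) were called. Higher in ST8 were Nol9 by 0.74, Nudt12 by 0.69, Peg10 by 0.66, Dnajc6 by 0.53, Bmp4 by 0.43 and Phlda2 by 0.39. Lower in ST8 were Nnat at -1.27, Calb2 at -0.81, Ildr1 at -0.68, Mcf2 at -0.65, Krt23 at -0.61, Slc16a9 at -0.57, Cth at -0.51 and Egln3 at -0.48. Nnat, Nol9 and Peg10 kept the call whenever any 1 array was left out, and each of the others lost it without at least 1 array.

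In 48 of the same 193 genes the difference of iPS minus ES cells changed from day 0 to day 5 by limma's test over 18 arrays, 32 below 0 and 16 above 0. Over all 19938 genes 427 (2.14%) were called. Most of the 193 were chosen by their day 0 difference, which is part of the change. The count of 48 and its lean below 0 are thus set in part by the choice. Of genes high in iPS cells at day 0, the change was -2.39 for Nr1h5, -2.38 for Bmp4, -2.36 for Sycp1, -2.14 for Cyp26a1, -1.99 for Cdh2, -1.96 for Epha4, -1.91 for Mixl1, -1.57 for Eomes, -1.46 for Sp5, -1.37 for Mitf and -1.36 for Calb2. It was -1.27 for Frzb, Gad1 and Klf12, -1.21 for Lef1 and Cfc1, -1.16 for Notum, -1.15 for Btla and Nek5, -1.14 for Cer1, -0.86 for Fgf8, -0.82 for Nr5a2, -0.80 for Dppa3, -0.74 for Peg10, -0.67 for Mest, -0.64 for Tgfb1 and -0.62 for Map2. In the same group it was -1.24 for Pglyrp1, -0.60 for Apoa2 and -0.57 for Eya1. Of genes low in iPS cells at day 0, the change was -2.14 for Meg3 and -1.13 for Nnat.

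Changes above 0 were 1.39 for Prss8, 1.37 for Cldn7, 1.20 for Mir380 and Mir381, 0.97 for Zdbf2, 0.90 for Tet2, 0.89 for Cldn4, 0.87 for Dlk1, 0.77 for Klf4, 0.75 for Cth, 0.68 for Jup and Nodal, 0.57 for Phlda2, 0.56 for Epcam, 0.55 for Mir376b and 0.48 for Bnip3. The calls of Bnip3, Cer1, Cldn7, Dlk1, Epcam, Fgf8, Frzb, Klf4, Nr1h5, Nr5a2 and Peg10 were lost without at least 1 array.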

How the results depend on the processing

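The count of 1737 genes called in iPS against ES cells at day 0 fell to 57 with a 2-fold minimum, was 971 in the fit of 18 arrays and ran from 938 to 1791 when 1 array was left out. It was 1606 to 2391 under other scalings, filters and spread estimates, and 1535 with cell line as a random block. For that block the correlation within a line was estimated at -0.011. With 1 ES line the block cannot measure the spread between ES lines, so nothing is concluded from it. With the replicate number as a block the count was 1466. Same-numbered day 0 arrays correlated at -0.18 to 0.33 after removing group means, so the numbers do not pair the samples. The counts of ST5 and ST8 against ES cells were 643 and 707 in the fit of 18 arrays, and 675 to 1052 and 632 to 1668 with 1 array left out. Between the clones the count of 23 was 13 in the fit of 18 arrays, 7 with the replicate block, 103 with dim genes left out, 148 with an intensity trend and robust spread, and 5 to 48 with 1 array left out. At day 5 the count of 140 was 1714 in the fit of 18 arrays, 37 with the replicate block, 225 with arrays shifted to a common median, 219 with dim genes left out, and 27 to 1619 with 1 array left out. The change was called in 173 to 1744 genes with 1 array left out. The cause of these shifts was not tested. Of 128 named genes called at day 0, 61 kept the call under every alternative run and 67 lost it under at least 1. Signs turned with 1 array left out for 4 genes, none of them called, whose values then ran from -0.08 to 0.17 for Igf2, -0.11 to 0.05 for Sry, -0.03 to 0.09 for Uba1y and -0.00 to 0.12 for Usp9y.

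The limits are the 3 arrays per group, the single ES line, and no detection calls. Low signals, such as Nr1h5 and Sycp1 in ES cells and many domain miRNA genes in iPS cells, thus have no stated background.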
